A study of Mus musculus with 2 samples.

Results

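Kap encodes the kidney androgen-regulated protein of the mouse, and it was 1 of the 15169 genes in the deposited table. It was selected on its measured pattern in these libraries, namely high values in proximal tubule cells together with values above 0 in nearly every other cell type. Its levels and its differences between the libraries are therefore descriptions, and no test is attached to them. Single-cell RNA sequencing was compared between a kidney after unilateral ischaemia-reperfusion injury with removal of the opposite kidney (IRI, 1 library, 5170 cells) and a normal control kidney (CTRL, 1 library, 6589 cells). The mice were wild-type C57BL/6 and 9 weeks old in both groups. The labels state neither the sex nor the time after injury, and they name no operation for the control, so the effects of ischaemia and of nephrectomy cannot be told apart. A single library stands for each group, the spread between animals is unknown, and every interval is an exact 95% interval for counting error only.

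Kap is one of the most abundant transcripts of the mouse proximal tubule, the part of the nephron that takes back most of the filtered water, salt, glucose and protein. The tubule has the segments S1 and S2 in the cortex and S3, the straight end that reaches the outer medulla. Androgen raises Kap transcription, and the segments are known to differ in their hormone dependence. Its protein has been found to bind cyclophilin B, which is encoded by Ppib. In droplet sequencing, RNA released from broken cells enters every droplet, so an abundant tubule transcript is also counted in cells that do not make it.

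The 250 bases before the Kap transcription start are shown because the androgen response described above acts on transcription from this start. They lie on the minus strand at chr6:133853668-133853917 of GRCm38.p6 (RefSeq promoter table, matched by symbol), a different build from the mm9 of the submitters' processing notes. Capitals mark TATAAA.

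Kap: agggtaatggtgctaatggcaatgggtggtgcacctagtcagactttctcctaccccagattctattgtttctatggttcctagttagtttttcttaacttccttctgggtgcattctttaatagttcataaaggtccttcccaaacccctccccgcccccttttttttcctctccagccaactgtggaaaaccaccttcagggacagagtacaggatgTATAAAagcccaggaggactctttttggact

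TATAAA begins 31 bases before the start, and 7.59% of 32851 promoters of this length hold it on the sense strand. The steroid receptor half-site AGAACA, searched on both strands, is not among these letters, and 16.1% of all promoters hold it.

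The deposited values were depth-corrected and not raw counts. Because free RNA is a matter of raw molecules, the raw unique molecular identifiers (UMIs) of Kap were recovered from the deposited residuals, and they came out whole within 0.25 UMI in 97.05% of 11759 cells, and in 89.72% of those with 5000 or more raw UMIs. The correction had changed the low end: 614 of 904 cells with 0 Kap UMIs carry a deposited Kap value above 0, up to 4, and 616 cells with at least 1 UMI are listed at 0. The recovered UMIs are given below per 10000 raw UMIs, beside the mean corrected count on which the ratios between libraries rest.

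The libraries held 16816996 raw UMIs in IRI (median 1888.5 per cell) and 24169073 in CTRL (median 2344), and 55 barcodes occurred in both. Kap took 77681 UMIs in IRI, 0.462% of the library, and 395736 in CTRL, 1.64%. The median mitochondrial share was 23.5% of a cell's corrected counts in IRI and 18.8% in CTRL. Transcripts of the 4 Y-linked genes measured were found in both libraries, Ddx3y for example in 220 IRI and 368 CTRL cells. No hormone level was measured.

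Within the proximal tubule, Kap was ordered S3, S2, S1 in both libraries. In S3 it stood at 136.5 UMIs per 10000 (135.1 to 137.9) in 790 IRI cells, against 245.7 (244.6 to 246.8) in 1442 CTRL cells. In S2 it stood at 62.7 (61.7 to 63.7) in 1482 IRI cells, against 165.9 (165.0 to 166.7) in 2785 CTRL cells. In S1 it stood at 28.6 (28.1 to 29.1) in 989 IRI cells, against 32.6 (31.9 to 33.2) in 600 CTRL cells. The segments were separated far beyond counting error, and CTRL was higher than IRI in each.

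S3 cells supplied 45.3% of all Kap UMIs in IRI and 46.9% in CTRL. S2 cells supplied 18.7% in IRI and 37.1% in CTRL, and S1 cells 18.7% in IRI and 2.49% in CTRL. The share of S1 was thus larger in IRI although its level there was not. Proliferating proximal tubule cells had 33.5 UMIs per 10000 in 155 IRI cells, and the 16 CTRL cells were too few to set beside them. The 135 cells named injured proximal tubule, all from IRI, had 41.3 UMIs per 10000 (40.1 to 42.6). The median of these injured cells was 8.25 per 10000 while their 90th percentile was 104.9, so the level was uneven among them.

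**Figure D1:**
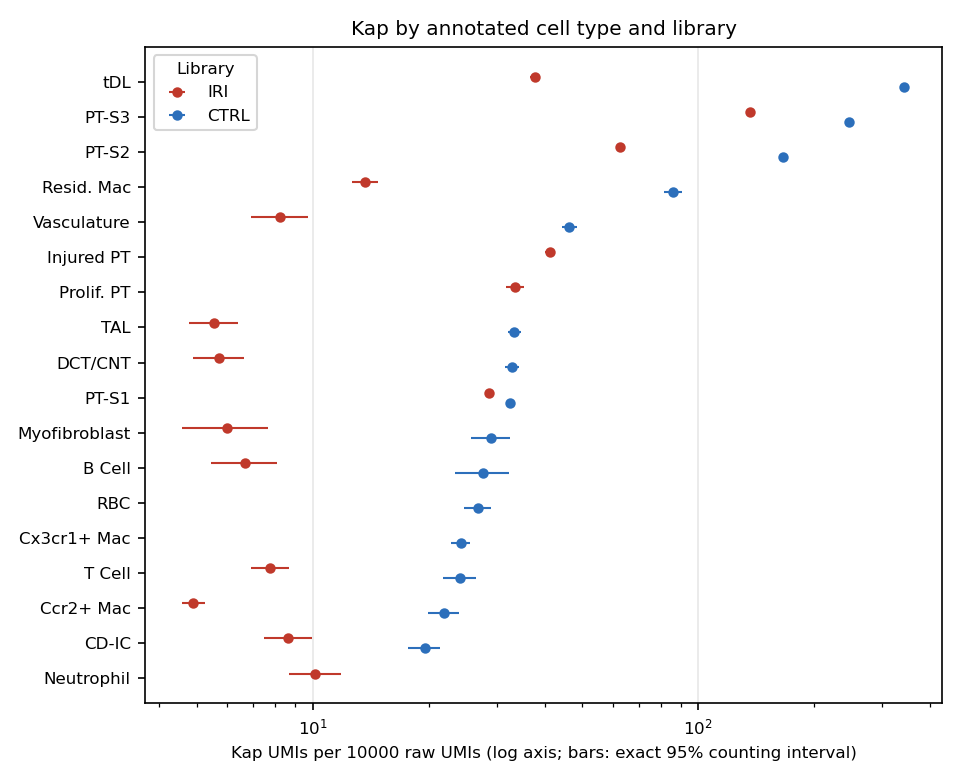
Kap UMIs per 10000 raw UMIs (log axis) by annotated cell type with at least 20 cells, IRI in red above CTRL in blue, with exact 95% counting intervals. S3 stands at 136.5 in IRI and 245.7 in CTRL, while S1 in CTRL, at 32.6, lies among the thick ascending limb, distal tubule and immune types of that library.

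Outside the proximal tubule Kap was counted in every type. Immune cells, pooled, had 7.30 UMIs per 10000 (6.99 to 7.61) in 814 IRI cells, against 33.1 (32.0 to 34.2) in 414 CTRL cells. Cells of the distal tubule, pooled from the thick ascending limb, the distal convoluted and connecting tubule and intercalated cells, had 6.4 (5.87 to 6.95) in 230 IRI cells, against 31.3 (30.5 to 32.2) in 617 CTRL cells. In CTRL the thick ascending limb (33.4, 32.1 to 34.7), cells annotated DCT/CNT (32.8, 31.5 to 34.2) and S1 (32.6, 31.9 to 33.2) followed each other with overlapping intervals. Their order therefore does not go beyond counting error.

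At least 1 Kap UMI was found in 77.6% of immune cells in IRI and 98.1% in CTRL. In S3 cells the shares were 92.4% in IRI and 99.9% in CTRL, and in S1 cells 88.1% in IRI and 100% in CTRL. Kap UMIs were thus present in most cells of types that should lack the gene, and shares at or below those of immune cells are read as background. With each cell thinned to 500 UMIs, the immune share was 32.7% in IRI and 77.3% in CTRL, the S1 share 45.3% in IRI and 71.4% in CTRL, and the S3 share 80.5% in IRI and 99.0% in CTRL. Thinning keeps the higher rate of shallow cells, so it does not set S1 and immune cells at equal original depth. Among cells of 1000 to 2000 raw UMIs, 75.2% of S1 cells and 70.5% of immune cells in IRI held a Kap UMI, against 100% of S1 cells and 92.5% of immune cells in CTRL.

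Up to 8000 raw UMIs, Kap in immune cells grew less than in proportion to depth. Immune cells of 500 to 1000 raw UMIs held 1.05 Kap UMIs per cell in IRI, against 5.57 in CTRL. Those of 4000 to 8000 raw UMIs held 3.91 per cell in IRI, against 11.7 in CTRL. The rate per 10000 was therefore higher in shallow cells. From 8000 raw UMIs, 110 immune cells of IRI held a mean of 6.61 Kap UMIs and a median of 5. In CTRL, 17 such cells held a mean of 35.9 and a median of 17, so the CTRL mean rose steeply there. Resident macrophages had 85.9 Kap UMIs per 10000 in CTRL, the highest of the immune types there, with a median of 599.5 raw UMIs per cell and 7.32 Kap UMIs per cell. The Ccr2+ macrophages of CTRL, with a median of 6192 raw UMIs, held 14.5 Kap UMIs per cell and 21.9 per 10000.

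**Figure D2:**
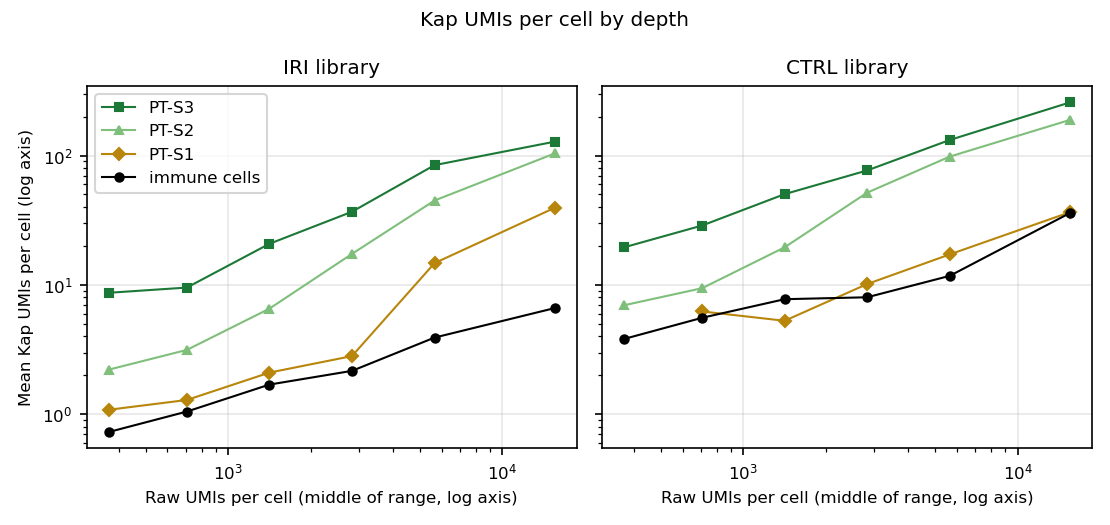
Mean Kap UMIs per cell (log axis) against raw UMIs per cell (log axis, middle of each range), IRI on the left and CTRL on the right, for S3, S2, S1 and pooled immune cells in ranges with at least 10 cells. At 4000 to 8000 raw UMIs, S1 cells hold 14.7 and immune cells 3.91 in IRI, against 17.2 and 11.7 in CTRL, so the lines lie closer together in CTRL.

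To set segments against free RNA, each cell was compared with immune cells of its own library in the same range of raw UMIs. This comparison was chosen after the data were seen, and doublets were not called. The 5 types of IRI outside the immune cells, proximal tubule and tDL lay between 0.709 times (thick ascending limb) and 1.21 times (intercalated cells) the immune level at matched depth, and the 6 in CTRL between 0.641 times (intercalated cells) and 1.23 times (cells annotated RBC). Pooled distal tubule stood at 0.875 times in IRI and 0.967 times in CTRL.

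Against the same measure, S3 stood at 17.6 times the immune level in IRI and 8.15 times in CTRL. S2 stood at 6.23 times in IRI and 4.92 times in CTRL. S1 stood at 4.08 times in IRI and 1.24 times in CTRL, and the CTRL value lies at the upper end of the range of the other types. Over all depths together, S1 thus stood well above the other types in IRI and close to them in CTRL. The excess of S1 in IRI lay in its deeper cells. From 500 to 4000 raw UMIs, S1 of IRI stood at 1.23 to 1.30 times the immune level of the range. It stood at 3.77 times at 4000 to 8000 raw UMIs and at 5.96 times from 8000. Resident macrophages, themselves among the immune cells, stood at 1.42 times in IRI and 1.29 times in CTRL. The ratios of IRI and CTRL have different denominators, since immune cells of IRI held fewer Kap UMIs per cell than those of CTRL in every range of raw UMIs, with CTRL at 3.002 to 5.429 times IRI.

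The ratio of Kap to Gpx3, the secreted glutathione peroxidase of the proximal tubule, gave a further description of the free RNA. Immune cells held 0.360 Kap UMIs per Gpx3 UMI in IRI, against 1.70 in CTRL. All cells of the library together held 0.308 in IRI, against 1.48 in CTRL. S1 held 0.122 in IRI, against 0.144 in CTRL, S2 held 0.418 in IRI, against 1.47 in CTRL, and S3 held 0.641 in IRI, against 2.17 in CTRL. The pooled immune cells of each library lay near the whole of their library and near S2, and between S1 and S3. Single types differed. Over immune types with at least 20 cells the ratio ran from 0.235 (B cells) to 0.462 (resident macrophages) in IRI. In CTRL it ran from 1.32 (T cells) to 2.31 (resident macrophages), the latter above S3. Pooled distal tubule held 0.229 in IRI, against 1.25 in CTRL. The source of the free RNA was not tested. The 16 proximal tubule markers summed to between 5.83 (Ccr2+ macrophages) and 18.4 (resident macrophages) corrected counts per cell over the immune types of IRI with at least 20 cells, against 7.63 to 29.6 over those of CTRL.

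Counted by cell, 72.5% of S3 cells in IRI (69.3 to 75.6) and 86.4% in CTRL (84.5 to 88.1) held more Kap UMIs than 95% of the immune cells of the same library and range of depth. For S2 it was 46.3% in IRI and 53.5% in CTRL, and for S1 31.6% in IRI (28.8 to 34.6) and 13.5% in CTRL (10.9 to 16.5). Among the injured proximal tubule cells it was 39.3% (31.0 to 48.0). Pooled distal tubule stood at 5.22% in IRI and 5.35% in CTRL and vasculature at 5.21% in IRI and 4.95% in CTRL, close to the 5% that the limit leaves among immune cells. The limit rests on 17 immune cells for the deepest range of CTRL, where it is 113 Kap UMIs, against 11 in IRI.

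**Figure D3:**
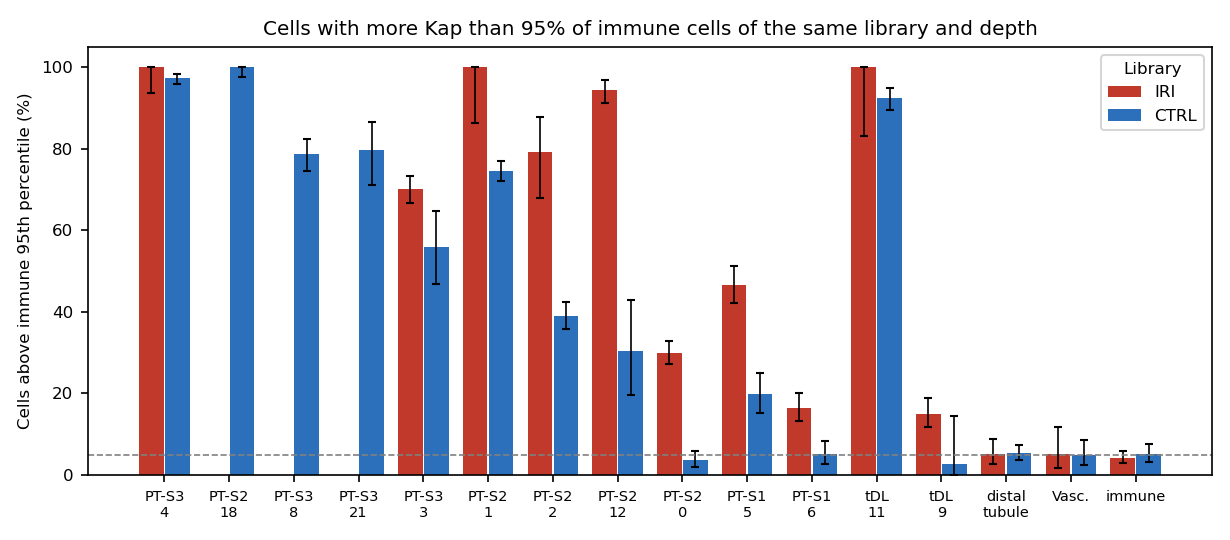
Percentage of cells with more Kap UMIs than 95% of immune cells of the same library and depth, by proximal tubule and tDL cluster (annotated type above the cluster number) and in 3 other groups, IRI in red left of CTRL in blue, with exact 95% intervals and a dashed line at 5%. Clusters 18, 8 and 21 have no IRI bar because they hold under 20 IRI cells, and cluster 0 stands at 29.9% in IRI and 3.58% in CTRL.

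Between the libraries, the mean corrected count of Kap was 10.9 in S2 of IRI, against 31.8 in S2 of CTRL, a log2 ratio of -1.54, where 0.05 was added to each mean. Of 7720 genes measured in S2, 1.32% were at least 2-fold lower in IRI and 0.311% at least 2-fold higher. In S3 it was 29.3 in IRI, against 58.7 in CTRL, a log2 ratio of -1.0 that lies at the 2-fold limit and just fails it before rounding. There 3.1% of 7720 genes were at least 2-fold lower and 1.44% at least 2-fold higher. In S1 it was 4.69 in IRI, against 7.08 in CTRL, a log2 ratio of -0.59, beside 0.579% of 7595 genes at least 2-fold lower and 0.922% at least 2-fold higher.

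Kap differed more in the cells that served as background than in any segment. In immune cells its mean was 2.31 in IRI, against 10.3 in CTRL, a log2 ratio of -2.13, where 1.94% of 5718 genes were at least 2-fold lower. In pooled distal tubule it was 1.92 in IRI, against 9.17 in CTRL, a log2 ratio of -2.23, where 1.09% of 5207 genes were at least 2-fold lower. The free RNA of each library enters the segments too. With the level of immune cells at matched depth subtracted, the log2 ratio was -1.33 in S2, -0.74 in S3 and 1.77 in S1. The direction in S1 thus turned, and S1 of CTRL had little Kap left above the immune level from which to form a ratio.

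Within the deposited clusters the mean corrected counts of the libraries were closer. Of 8 proximal tubule clusters with at least 20 cells in each library, Kap was at least 2-fold lower in 1 and at least 2-fold higher in 0, where 0.608% to 12.9% of genes were at least 2-fold lower. These counts include free RNA. The immune level at matched depth was then subtracted, a choice made after the data were seen. IRI stood above CTRL in 8 of the 8 clusters, though cluster 4 was nearly equal, at 332.9 UMIs per 10000 in IRI and 330.9 in CTRL. The lower call was lost, and cluster 5 was more than 2-fold higher, at 30.9 in IRI and 13.6 in CTRL. The level subtracted from the deepest CTRL cells is the mean of 17 immune cells, 35.9 Kap UMIs, where their median is 17. Whether the call in cluster 5 depends on that mean was not tested. In clusters 0 and 6 the subtraction left 21.4 and 3.11 in IRI, while CTRL lay below its immune level. Without subtraction, Kap in cluster 4, the S3 cluster with the highest Kap, stood at 342.7 UMIs per 10000 in 58 IRI cells, against 361.9 in 742 CTRL cells. In cluster 3, the other S3 cluster of both libraries, it stood at 128.4 in 727 IRI cells, against 119.6 in 127 CTRL cells. The log2 ratio of the mean corrected count was -0.06 in cluster 4 (12.9% of genes at least 2-fold lower) and 0.06 in cluster 3 (1.36%). The median log2 ratio of all genes measured was itself -0.34 in cluster 4 and -0.04 in cluster 3.

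In the S2 clusters, Kap stood at 128.7 UMIs per 10000 in 25 IRI cells of cluster 1, against 140.7 in 1283 CTRL cells (log2 ratio of the corrected count -0.12, with 8.62% of genes at least 2-fold lower). Cluster 2 had 118.2 in 72 IRI cells, against 162.9 in 898 CTRL cells (-0.33, with 5.66%). Cluster 12 had 79.8 in 292 IRI cells, against 85.1 in 66 CTRL cells (-0.11, with 1.72%). Cluster 0 had 34.4 in 1092 IRI cells, against 51.0 in 391 CTRL cells (-0.54, with 0.608%), and in CTRL that is 0.865 times the immune level at matched depth, against 2.66 times in IRI. Cluster 0, with the least Kap of the S2 clusters, held most of the S2 cells of IRI.

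In S1, cluster 5 had 37.6 UMIs per 10000 in 501 IRI cells, against 39.6 in 283 CTRL cells (log2 ratio of the corrected count -0.24, with 2.19% of genes at least 2-fold lower). Cluster 6 had 10.7 in 479 IRI cells, against 22.9 in 276 CTRL cells (-1.22, with 0.637%), and this was the 1 cluster past 2-fold. The median of all genes was -0.21 in cluster 5 and -0.02 in cluster 6. At matched depth cluster 6 stood at 1.41 times the immune level in IRI and at 0.859 times in CTRL. The IRI value lay above the 1.21 of the highest type outside the immune cells, proximal tubule and tDL. It did not exceed the 1.42 of resident macrophages in IRI, an immune type read as background. Of the cells of cluster 6, 16.5% in IRI (13.3 to 20.1) and 5.07% in CTRL (2.80 to 8.36) held more Kap than 95% of immune cells. Cluster 5 stood at 5.62 times in IRI and 1.52 times in CTRL, with 46.7% of its cells in IRI (42.3 to 51.2) and 19.8% in CTRL (15.3 to 24.9) above that limit.

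Clusters almost wholly of CTRL held much of its Kap. Cluster 18, an S2 cluster of 147 CTRL cells and 1 IRI cell, had 357.7 UMIs per 10000 in CTRL. The S3 clusters 8 (455 CTRL cells, 4 IRI cells) and 21 (118 CTRL cells, 1 IRI cell) had 177.2 and 269.9 in CTRL. Where the CTRL level of each cluster was weighted by the cluster shares of IRI, S3 came to a mean corrected count of 28.7, S2 to 14.3 and S1 to 6.85. The observed means were 29.3 for S3, 10.9 for S2 and 4.69 for S1 in IRI, against 58.7, 31.8 and 7.08 in CTRL. Kap itself was among the genes clustered, so closeness within clusters is in part built in, and a cluster almost wholly of 1 library cannot be told apart from that library.

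**Figure D4:**
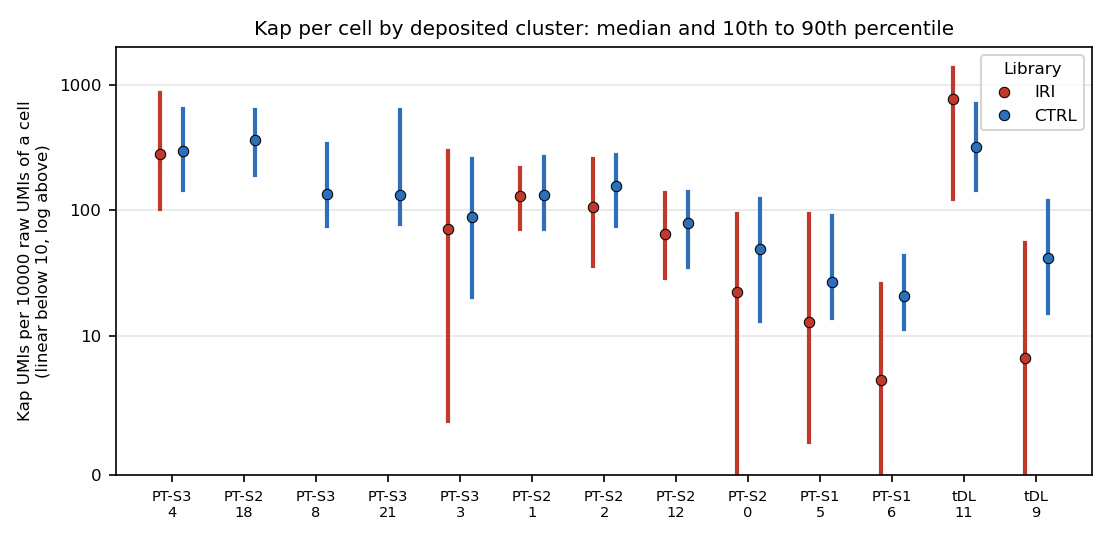
Kap UMIs per 10000 raw UMIs of a cell (linear below 10, log above) by deposited cluster, IRI in red left of CTRL in blue, as the median (point) and the 10th to 90th percentile (line) over cells, for clusters with at least 20 cells of that library. Cluster 3 in IRI spans 3.90 to 294.6 around a median of 70.9, wider than the 20.3 to 253.8 of CTRL around a median of 88.4.

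Cluster 11, annotated tDL, a name of the thin descending limb, also held much Kap. It had 565.7 UMIs per 10000 (538.9 to 593.5) in 20 IRI cells, against 362.4 (358.9 to 366.0) in 391 CTRL cells, where clusters 4 (361.9) and 18 (357.7) were close to it. Its mean corrected count was 143.8 in IRI, against 75.6 in CTRL. Of the thin limb list, Bst1, Cldn4 and Sptssb were at 0 there in both libraries although cluster 9 held them, and Slc14a2, Epha7, Fst and Cdh13 were at or near 0 in both clusters. The water channel Aqp1 had a mean of 0.35 in cluster 11 of IRI and 0.57 in that of CTRL, above the 0.129 of cluster 9 in IRI and 0.25 in CTRL, though the proximal tubule also makes it. The small heat shock protein Cryab had 1.80 in IRI and 1.504 in CTRL. That lay below the 2.27 in IRI and 4.0 in CTRL of cluster 9, and above the 0.155 and 0.0741 of the S3 cluster 4. Akr1b3 and Cldn3 of the thin limb list were lower in cluster 11 than in cluster 9 in both libraries. In cluster 11 the S3 gene Acsm3, a medium-chain acyl-CoA synthetase, had 1.15 in IRI and 1.05 in CTRL. The steroid hydroxylase Cyp7b1 had 0.85 in IRI and 0.573 in CTRL. Megalin, the endocytic receptor encoded by Lrp2, was low there, at 0.10 in IRI and 0.621 in CTRL. Kap stood at 10.8 UMIs per Gpx3 UMI in IRI and 11.9 in CTRL, above that of immune cells and of S3, beside 8.39 in the S3 cluster 21 of CTRL.

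The other cluster annotated tDL, cluster 9, had 24.6 UMIs per 10000 in 420 IRI cells, against 27.9 in 36 CTRL cells. At matched depth this was 3.17 times the immune level in IRI and 0.666 times in CTRL. Of its IRI cells, 15.0% lay above 95% of immune cells, and its median cell in IRI had 8.40 Kap UMIs per 10000. Pooled over both clusters, tDL in CTRL had the highest Kap of any type, 342.1 per 10000, against 37.7 in IRI, with cluster 11 making up most of the type in CTRL and cluster 9 most of it in IRI.

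Other genes that androgen is known to raise in the mouse proximal tubule were read from a list of 16. In S3, 12 of 16 were at least 2-fold lower in IRI and 0 higher, beside 3.1% of all genes lower, with a median log2 ratio of -1.32 against -0.08 for all genes measured. Slc7a13, the aspartate and glutamate carrier of S3, had a mean of 0.110 in IRI, against 1.41 in CTRL (log2 ratio -3.19). The organic anion carrier Slco1a1 had 0.0557 in IRI, against 0.794 in CTRL (-3.0). Ornithine decarboxylase, Odc1, the first enzyme of polyamine synthesis, had 1.04 in IRI, against 2.557 in CTRL (-1.25). Kap, at -1.0, thus differed less than most of the list in S3. These values are of the whole segment, and cluster 3 held 727 of the 790 S3 cells of IRI but 127 of the 1442 of CTRL. Within cluster 3, Acsm3 had 0.180 in IRI and 0.173 in CTRL, and Slc7a13 had 0.0867 in IRI and 0.150 in CTRL. Within cluster 4, Acsm3 had 0.534 in IRI and 0.642 in CTRL, and Slc7a13 had 0.190 in IRI and 0.857 in CTRL. The part of the cluster mix in the differences of the list was not tested.

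The 4 members under 2-fold in S3 were Akr1c21, a hydroxysteroid dehydrogenase that stood at 2.88 in IRI and 2.89 in CTRL, Cyp2j13 (-0.28), the lysosomal enzyme Gusb (-0.30) and Timd2 (0.88). In S2, 5 of 16 were at least 2-fold lower and 0 higher, beside 1.32% of all genes lower. They were Slc7a13 (-1.98), Slco1a1 (-1.51), Acsm3 (-1.44), the coenzyme A hydrolase Nudt19 (-1.41) and Odc1 (-1.22). The median there was -0.75, against -0.08 for all genes. In immune cells, 4 of the 10 members measured were at least 2-fold lower, beside 1.94% of all genes. Not every member can be read as free RNA there. Gusb had 0.147 in immune cells and 0.0215 in S3 of IRI, and 0.123 and 0.0381 in CTRL. Hsd11b1 in IRI had 0.0246 in immune cells and 0.0241 in S3. The median in immune cells was -0.94, against -0.03 for all genes, with Nudt19 at -1.80. The part of free RNA in the S2 and S3 values of the list was not tested. In S1, 0 of the 13 measured were lower and 1 was higher, beside 0.579% of all genes lower and 0.922% higher. The higher member was the ethanol-oxidising Cyp2e1 at 0.681 in IRI and 0.273 in CTRL (1.18). The median of the list in S1 was -0.11, against -0.10 for all genes.

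**Figure D5:**
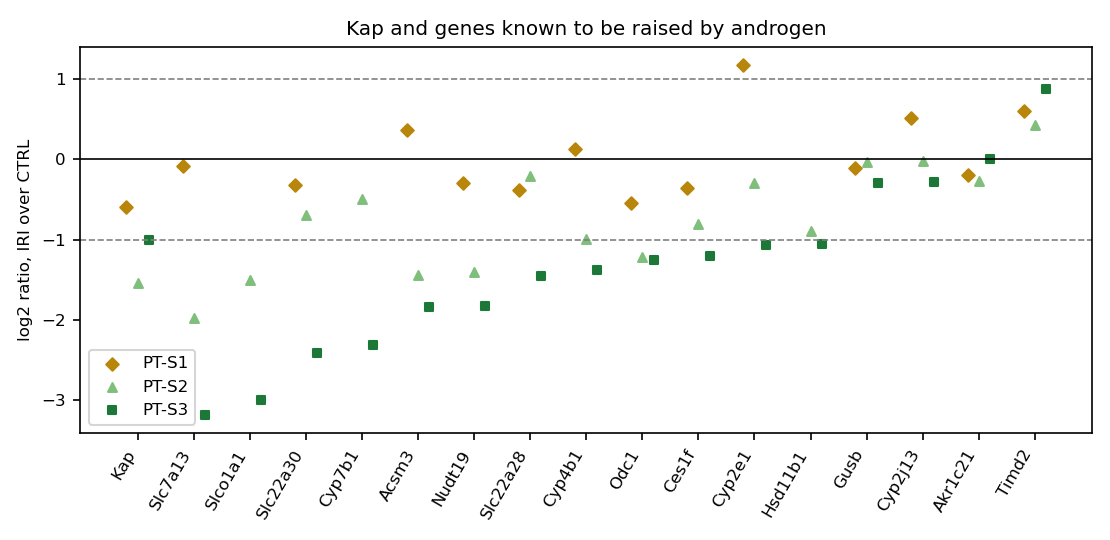
Log2 ratio of the mean corrected count, IRI over CTRL, of Kap and 16 genes known to be raised by androgen, in S1, S2 and S3 (members with at least 30 summed corrected counts in the segment), with dashed lines at 2-fold. In S3, 12 of the 16 lie below the lower line while Kap lies on it, and in S2 Kap lies at -1.54.

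Slc7a13, Acsm3 and Cyp7b1 also stand on the list of S3 markers. Of the 9 S3 markers measured in S3, 8 were at least 2-fold lower in IRI, beside 3.1% of all genes. Within cluster 3, Slc6a18, Slc5a8 and Atp11a were on the higher side in IRI, and within cluster 4 on the lower side. Slc7a13, Slc22a7 and Cyp7b1 were on the lower side in both clusters. Genes higher in female kidney differed in both directions in S3, where 3.1% of all genes were at least 2-fold lower and 1.44% higher. Of 4 measured, the organic anion carrier Slc22a7 (-2.89) and Cyp2a4 (-2.35) were lower and Cyp4a14 (1.75) was higher. The growth hormone receptor Ghr had a mean of 0.582 in S3 of IRI, against 1.56 in S3 of CTRL (-1.35). Ppib, which encodes the Kap partner cyclophilin B, was on the higher side in IRI, at 0.327 in S3 of IRI and 0.166 in S3 of CTRL (0.80), short of 2-fold.

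The genes most like Kap were ranked by Pearson correlation of log2 mean levels over the 31 groups of type and library with at least 20 cells, among 1712 genes with a mean of at least 0.5 in some group. They were Mpv17l (0.920), Acy3 (0.909), Acsm3 (0.906), Nudt19 (0.906), Cndp2 (0.894), Ttc36 (0.894), Chpt1 (0.893), Defb29 (0.878), Ghr (0.876) and the brush border protease Mep1a (0.866). The groups share 2 libraries and their free RNA, so the values are descriptions without a test. Over 22 groups of proximal tubule cluster and library the highest were Acsm3 (0.839), Acy3 (0.835), Napsa (0.829), Bhmt2 (0.821), Nudt19 (0.809), Mpv17l (0.779), Amacr (0.765), Tmigd1 (0.765), Akr1c14 (0.760) and Nat8 (0.760). Acsm3, Acy3, Nudt19 and Mpv17l stood in both lists. Acy3 is an aminoacylase, Cndp2 a dipeptidase, Chpt1 a choline phosphotransferase, Defb29 a defensin and Napsa an aspartic protease. Mpv17l, a membrane protein and the first over types, had a mean of 0.372 in S3 of IRI, against 1.14 in S3 of CTRL (log2 ratio -1.49).

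Within IRI, Kap was set against injury genes in cells of at least 2000 raw UMIs, leaving out Spp1. In S3 cells with and without a corrected count of each of 7 such genes, the ratio of Kap lay between 0.806 and 1.19, and it was below 1 for 6. Cells with Havcr1, the kidney injury molecule, had 134.1 Kap UMIs per 10000 (59 cells), against 136.8 in those without (381 cells). In S1 the ratio lay between 0.707 and 1.15 over 6 genes, in S2 between 0.818 and 1.09 over 3, and in injured proximal tubule cells between 0.712 and 1.45 over 5. No gene divided the cells by 2-fold in Kap, though free RNA adds to the cells on both sides of each ratio. The injury genes were also scarce, Havcr1 for example at a mean of 0.199 in S3 of IRI. A cell without a count may therefore still make the gene, which can draw the ratios toward 1.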

How the data were processed

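The submitters' processing notes name Cell Ranger 3.0.0, the genome build mm9 and Seurat 3.2. The deposited table of 15169 genes by 11759 cells holds a score, namely whole-number depth-corrected counts. Each cell sums to between 1468 and 3212 of them, although its raw UMIs number anywhere from 271 to 24680. Another deposited table gives the natural log of these values after adding 1. The residuals of 3000 genes, a score as well, were deposited separately. The values show that the residuals were centred and freed of the mitochondrial share. The deposited annotation gives library, cluster (29) and type (18 names). It was written without separators: 4290 cells had 2 possible splits into raw UMIs and genes, and the smaller UMI value was kept.

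Raw counts had been assumed in the plan. Instead, means of corrected counts were compared as log2 ratios with 0.05 added, for genes with at least 30 summed corrected counts. A negative binomial residual was inverted to recover raw UMIs of Kap (whole within 0.25 UMI in 99.68% of cells under 5000 UMIs and 89.72% of the others; 135 cells at the residual ceiling were taken from the corrected count) and of 42 other list genes. Recovery and ratios were tested on simulated data. Ratios of scarce genes are drawn toward 0 by the added 0.05. Log2 ratios were formed between groups of at least 20 cells, and doublets were not called. Intervals are exact Poisson or Clopper-Pearson 95% intervals, for counting error only.

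Kap and the gene lists (160 genes, 153 in the table) were chosen with earlier results of these data known. Named genes are the 10 most like Kap over types and over proximal tubule clusters, and members of the lists. One list, of hormone receptors and transcription factors, is not reported in full here. Clusters were singled out for the Kap they hold after their values were seen. The analysis used Python 3.11.15, numpy 2.4.6, scipy 1.17.1 and pandas 2.3.3.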

Additional observations from a re-analysis of the deposited data

Results flagged for a closer look

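The difference between the libraries in cluster 11 (annotated tDL) ran against that of the whole proximal tubule segments and of the whole tDL type. The log2 ratio of the mean corrected count of Kap, IRI over CTRL, was 0.93 there, beside -1.0 in S3 and -2.56 in tDL. Like for like, the S3 clusters stood at -0.06 (cluster 4) and 0.06 (cluster 3), so a single cluster is set against whole types here. The value of cluster 11 rests on 20 IRI cells, with a median of 844 raw UMIs, against 391 CTRL cells with a median of 1495. The differences between these ratios were not tested.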

How the results depend on the processing

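Of 61 recomputed values, 46 stayed within 1.5 times of the reported value, or within its interval, and on its side of any 2-fold limit, and 15 moved. With medians over cells in place of means, the log2 ratio of Kap was -1.30 in S1, -1.40 in S3 and -2.75 in immune cells, so S1 and S3 passed 2-fold. With free RNA at matched depth subtracted from recovered UMIs, an alternative chosen after the data were seen, S1 stood at 1.77, and of the 8 tubule clusters 0 were at least 2-fold lower and 1 higher. Immune cells stood at 17.1% of the proximal tubule level in IRI and 28.0% in CTRL; with at least 1000 raw UMIs this was 10.99% in IRI and 15.98% in CTRL, with at least 2000 it was 6.75% in IRI and 13.99% in CTRL, and by recovered UMIs 11.3% in IRI. Subtracting the mean immune level gave no value for S1, whose CTRL mean lay below it. By Spearman rank, 5 of the 10 genes most like Kap over tubule clusters were the same, and 9 of 10 over types. Subtracting free RNA removes an average and not each cell's own share, and the deepest immune range of CTRL holds 17 cells. No paired analysis was possible because each group has 1 library.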
